A study of Mus musculus with 12 samples.

Results

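Scavenger and mannose receptors are surface proteins with which macrophages and microglia take up modified lipoproteins, dying cells, haemoglobin complexes and microbial material. The 8 receptors examined here were Msr1, Marco, Cd36, Scarb1, Mrc1, Cd163, Stab1 and Olr1. Each was found by its symbol as 1 Ensembl gene among the 55416 identifiers of a table of raw read counts. RNA was measured in SIM-A9, a spontaneously immortalised mouse microglial line of strain C57BL/6, in its wild-type form (WT) and as line H14, labelled a knockout of the kinase MOK (KO). Both lines were grown in DMEM-F12 with fetal bovine and horse serum and were given medium alone or lipopolysaccharide (LPS, a bacterial cell wall component) for 5 h at 1 µg/mL. Each of the 4 groups (WT in medium, WT under LPS, KO in medium, KO under LPS) had 3 libraries, given as biological replicates. How the replicate cultures were separated is not stated, so p-values cover the spread among these samples alone, which may be technical. H14 is a single line, and the effect of losing MOK and other ways in which H14 may differ from WT cannot be told apart. In such bulk RNA, fewer cells that express a gene and less RNA per cell cannot be told apart either.

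The receptors share ligands more than structure. Msr1 and Marco are trimeric class A receptors with a collagen-like stalk, and Cd36 and Scarb1 are class B receptors anchored at both ends that bind oxidised lipoproteins, fatty acids and high-density lipoprotein. Mrc1 is the macrophage mannose receptor, a multi-domain C-type lectin that clears mannosylated glycoproteins. Cd163 takes up haemoglobin bound to haptoglobin, Stab1 is a stabilin that sorts ligands to endosomes, and Olr1 (LOX-1) is a lectin-like receptor for oxidised low-density lipoprotein. In the brain, Mrc1 and Cd163 are known as markers of border-associated macrophages rather than of resting parenchymal microglia, and transcription of several of these genes in macrophages is known to depend on PU.1, MAF proteins and PPARγ.

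The promoters of 3 receptors whose RNA was low in KO together are shown first, with that of Stab1, whose RNA stayed abundant in KO, set beside them. They are the 250 bases before the RefSeq start site on GRCm38.p6, 5′ to 3′ on the gene's own strand. Capitals mark matches to PU.1 (GAGGAA) or to a MAF element (TGCTGA), searched on both strands. The windows lie at chr5:17835897-17836146, minus strand, for Cd36, at chr2:14229164-14229413, plus strand, for Mrc1, at chr1:120505025-120505274, minus strand, for Marco and at chr14:31168642-31168891, minus strand, for Stab1.
Cd36: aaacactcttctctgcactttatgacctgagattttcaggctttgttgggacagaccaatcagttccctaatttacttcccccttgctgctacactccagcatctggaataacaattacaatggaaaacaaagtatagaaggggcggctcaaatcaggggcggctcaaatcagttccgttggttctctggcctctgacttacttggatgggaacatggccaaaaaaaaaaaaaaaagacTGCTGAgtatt
Mrc1: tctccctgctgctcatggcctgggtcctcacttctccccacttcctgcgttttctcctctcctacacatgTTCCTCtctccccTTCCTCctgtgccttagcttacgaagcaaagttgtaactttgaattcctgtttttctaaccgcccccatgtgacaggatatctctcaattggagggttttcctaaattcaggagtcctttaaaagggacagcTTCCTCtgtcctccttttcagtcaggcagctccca
Marco: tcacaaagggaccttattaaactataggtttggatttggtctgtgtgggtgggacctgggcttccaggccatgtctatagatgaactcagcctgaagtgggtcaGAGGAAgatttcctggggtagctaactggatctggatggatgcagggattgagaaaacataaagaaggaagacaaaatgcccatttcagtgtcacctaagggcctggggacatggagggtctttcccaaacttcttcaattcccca
Stab1: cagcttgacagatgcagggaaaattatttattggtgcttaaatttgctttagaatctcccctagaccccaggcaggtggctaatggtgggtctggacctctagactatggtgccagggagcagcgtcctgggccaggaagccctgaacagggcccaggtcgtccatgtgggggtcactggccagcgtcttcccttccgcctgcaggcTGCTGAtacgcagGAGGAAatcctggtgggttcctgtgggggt
The Cd36 window held a MAF element at -11 to -6 from the start and no PU.1 match. Mrc1 held PU.1 matches on the opposite strand starting at -180, -167 and -35, and Marco held a PU.1 match at -146 to -141. Stab1 held a PU.1 match at -30 to -25 and a MAF element at -43 to -38. None of the printed matches overlapped another. PU.1 letters were present in 23.3% and the MAF element in 16.1% of all 32851 RefSeq promoter windows of this length. An AP-1 element (TGANTCA, 6.75% of windows), a C/EBP element (TTGCNNAA, 9.56%) and an NF-kB element (7.25%) were also searched, and no match to these letters lay in the 4 windows. Of the other receptors, Olr1 held a PU.1 and an AP-1 match, Cd163 held none of the 5 elements, and Msr1 and Scarb1 had no entry among the promoters used. The printed windows had a GC content of 43.2% (Cd36), 49.6% (Mrc1), 47.6% (Marco) and 57.2% (Stab1), against a median of 52.4% over all windows. The bases just after this RefSeq start occurred in 0 of 6 Cd36 transcripts of the GENCODE annotation, in 1 of 2 for Mrc1, 1 of 2 for Marco and 1 of 13 for Stab1, so these windows may not be the starts used in SIM-A9 cells.

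The libraries held 39.7 to 72.9 M counts. Raw Mok counts, not scaled for depth, were lower in every KO library than in any WT library of the same treatment. With medium alone, KO libraries held 95 to 117 counts against 158 to 206 for WT. With LPS, KO libraries held 56 to 84 counts against 87 to 164 for WT. The ranges overlapped only when treatments were pooled (KO 56 to 117, WT 87 to 206). Where the gene was altered in H14 is not given in the sources used here, so counts over the whole gene do not check the label. Markers of microglia and macrophages (14 of 14 passed the filter on low counts) summed, in CPM (counts per M of TMM-scaled library size), to 1217 to 1441 in WT and 839 to 1223 in KO in medium, and to 1582 to 1832 in WT and 1128 to 1576 in KO under LPS. Group means in medium were 240 CPM in WT and 148 in KO for Csf1r, 20.9 and 3.67 for Itgam, 187 and 188 for Ptprc and 411 and 350 for Cd68, whereas P2ry12 and Sall1, which define resting microglia, stayed under 1 CPM in every group mean. The border-associated macrophage markers summed to 39.2 to 63.7 CPM in the WT libraries and 58.1 to 112 in the KO libraries, nearly all from Pf4 (39.3 CPM in WT and 62.6 in KO in medium) and F13a1 (5.34 and 15.5), while Lyve1 and Cd209f had group means of at most 0.311 CPM. Summed levels were at most 5.06 CPM for astrocyte, 5.75 for neuron, 3.19 for fibroblast and 3.1 for B cell markers. Oligodendrocyte markers, mostly Mbp, summed to 11 to 15.9 CPM in WT and 26.6 to 27.1 in KO in medium and to 7.95 to 8.38 and 13.8 to 16.8 CPM under LPS. T cell markers, mostly Cd3e, summed to 2.92 to 11.3 CPM in WT and 2.88 to 7.12 in KO in medium and to 10.9 to 11.2 and 14.9 to 23.6 CPM under LPS, with Cd3d at most 0.257 CPM in any library. Endothelial markers summed to 99.3 to 120 CPM in the WT libraries and 117 to 138 in the KO libraries, mostly from Kdr, with Pecam1 and Cdh5 under 1 CPM in every group mean. The part of these marker differences in the receptor results was not tested. Processed pseudogenes took 12.8% to 14.3% of the counts of the KO libraries in medium, 13% in replicate 2 of WT in medium and 6.28% to 8.89% in the other 8 libraries. Without replicate 2 of WT in medium, genes called higher in KO in medium rose from 1818 to 6110 and genes called lower from 3256 to 5155, so each receptor's difference in medium is also given without that library.

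Lower receptor RNA in KO was the main pattern among the 8 genes. In medium, 6 of the 8 were lower in KO and none was higher (edgeR's quasi-likelihood test, Benjamini-Hochberg adjusted p under 0.05 over 26420 genes), where 12.3% of all genes were called lower, 6.88% higher and 19.2% either way. The number higher was also 0 at an unadjusted p under 0.05 and with DESeq2. Under LPS, 6 were lower and 1 higher, where 12.7% of all genes were called lower, 7.87% higher and 20.6% either way. The median log2 fold change of the 8 receptors was -1.55 in medium and -1.92 under LPS, against 0.04 and 0.07 over all genes. LPS raised 4 receptors in WT and lowered none, against 16.3% of all genes called higher, 16.3% lower and 32.6% either way. At an unadjusted p under 0.05, 1 receptor (Scarb1) was lower, and with DESeq2 0 were. In KO it raised 4 and lowered 1, against 25.3% higher, 26.8% lower and 52% either way. The LPS response differed between the lines for 2 receptors, 1 in each direction, where 1.6% of all genes were called, 0.693% higher and 0.908% lower in KO than in WT. All 8 receptors passed the filter on low counts, but Marco and Mrc1 did so through the WT groups alone, Olr1 through WT under LPS alone, and Cd163 through 7 libraries, namely 4 of WT and the 3 of KO under LPS, so the counts and medians above describe the 8 genes and support nothing beyond them. The comparisons share libraries and are therefore given side by side, not correlated.

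**Figure D1:**
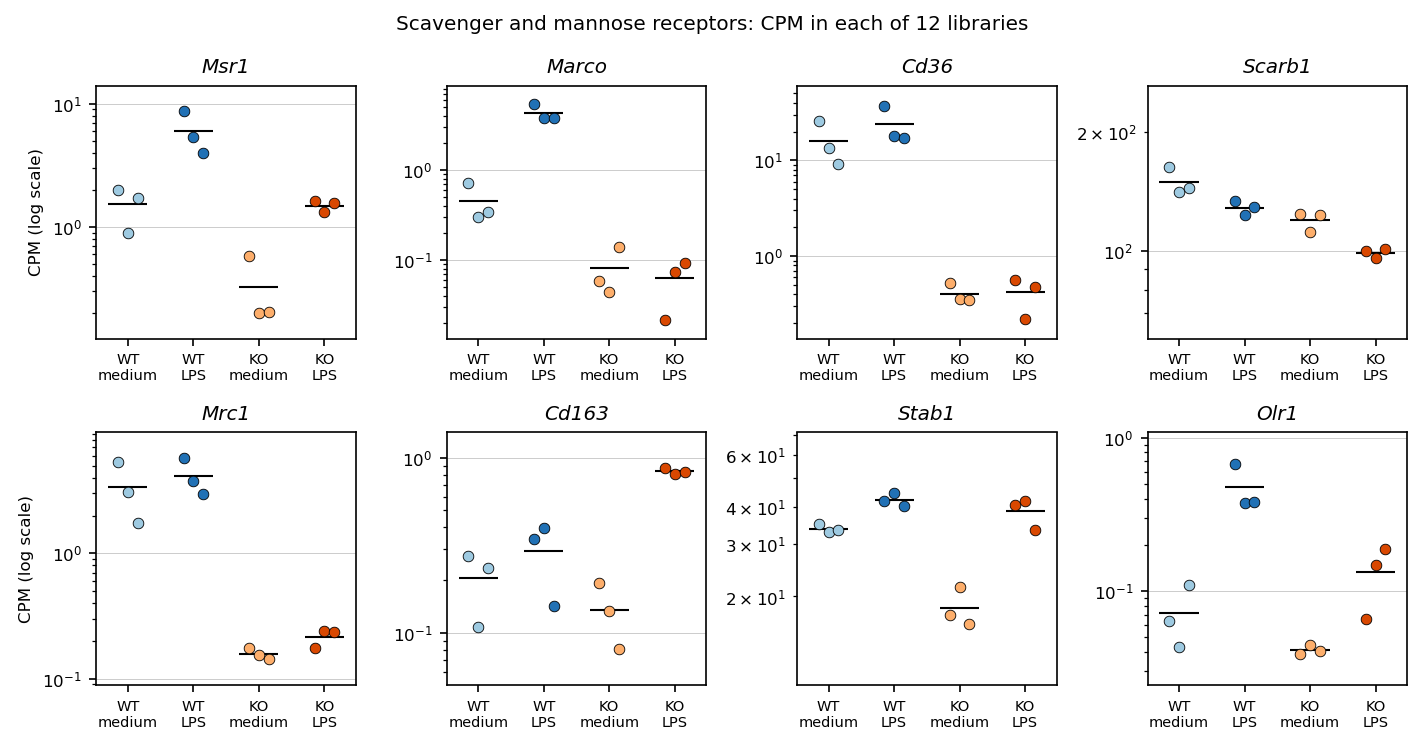
CPM of the 8 receptors (log axis, a different range in each panel) in each of the 12 libraries, in 4 groups of 3. Points are libraries and bars are group means. The KO libraries of Cd36 and Mrc1 lie far below all WT libraries, and the KO libraries under LPS of Cd163 lie above all others.

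Msr1 (ENSMUSG00000025044), the class A receptor for acetylated lipoprotein and lipid A, rose with LPS in both lines and was lower in KO in both conditions. Its level was 2.0, 0.887 and 1.73 CPM in WT in medium and 8.7, 5.36 and 4.0 CPM in WT under LPS. In KO it was 0.583, 0.199 and 0.203 CPM in medium and 1.61, 1.31 and 1.55 CPM under LPS. The KO libraries lay below all WT libraries of the same treatment, and the KO libraries under LPS lay within the range of WT in medium. LPS raised Msr1 by 1.96 ± 0.42 (SE) on the log2 scale in WT (3.9-fold, adjusted p = 0.0049) and by 2.16 ± 0.47 in KO (4.47-fold, adjusted p = 0.00353). The difference between these responses was 0.20 ± 0.60 and did not pass the test (adjusted p = 0.903). The KO level was 4.63-fold lower in medium (log2 -2.21 ± 0.47, adjusted p = 0.00646, -2.50 without replicate 2 of WT) and 4.04-fold lower under LPS (log2 -2.02 ± 0.43, adjusted p = 0.00535).

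Marco (ENSMUSG00000026390), a class A receptor that binds bacteria and is known to be induced by LPS in macrophages, was induced in WT and stayed at a few counts in KO. Its level was 0.716, 0.303 and 0.343 CPM in WT in medium and 5.37, 3.77 and 3.83 CPM in WT under LPS. In KO it was 0.0583, 0.0442 and 0.142 CPM in medium and 0.0217, 0.0735 and 0.0942 CPM under LPS, from raw counts of 3, 2, 7 and 1, 4, 4. Every KO library lay below every WT library, and the KO groups overlapped each other. LPS raised Marco 9.54-fold in WT (log2 3.25 ± 0.40, adjusted p = 8.89e-05), whereas in KO the difference was -0.37 ± 0.67 (adjusted p = 0.669). The KO level was 5.37-fold lower in medium (log2 -2.42 ± 0.51, adjusted p = 0.00635, -2.64 without replicate 2 of WT) and 66.1-fold lower under LPS (log2 -6.05 ± 0.51, adjusted p = 6.89e-06). The LPS response was smaller in KO by 3.62 ± 0.79 on the log2 scale (interaction -3.62, adjusted p = 0.0468). That call was lost without any 1 of 9 of the 12 libraries (replicate 3 of WT in medium, any WT library under LPS, replicate 1 or 3 of KO in medium, or any KO library under LPS), with adjusted p up to 0.233, while the difference ran from -4.06 to -2.96 over all alternatives.

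Cd36 (ENSMUSG00000002944), the class B receptor for oxidised lipoprotein, fatty acids and fibrillar amyloid, had the largest line difference of the 8 in medium. Its level was 25.7, 13.4 and 9.21 CPM in WT in medium and 37.4, 18.1 and 17.3 CPM in WT under LPS. KO libraries held 0.525, 0.353 and 0.345 CPM in medium and 0.565, 0.221 and 0.471 CPM under LPS, where raw counts were 12 to 27 per library. Every KO library lay far below the lowest WT library, and in WT replicate 1 was the highest of each treatment. The KO level was 39.1-fold lower in medium (log2 -5.29 ± 0.53, adjusted p = 5.97e-05, -5.41 without replicate 2 of WT) and 58.4-fold lower under LPS (log2 -5.87 ± 0.54, adjusted p = 2.19e-05). The difference between LPS and medium was 0.59 ± 0.41 in WT (adjusted p = 0.289) and 0.01 ± 0.56 in KO (adjusted p = 0.986), and neither passed the test.

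Scarb1 (ENSMUSG00000037936), the high-density lipoprotein receptor SR-BI, was abundant in all groups, and its differences were small and even across libraries. Its level was 163, 141 and 144 CPM in WT in medium and 134, 123 and 129 CPM in WT under LPS. In KO it was 124, 112 and 123 CPM in medium and 99.8, 96.3 and 101 CPM under LPS. The KO libraries lay below the WT libraries of the same treatment, and WT under LPS overlapped KO in medium. The KO level was 1.25-fold lower in medium (log2 -0.32 ± 0.08, adjusted p = 0.0119, -0.38 without replicate 2 of WT) and 1.3-fold lower under LPS (log2 -0.38 ± 0.08, adjusted p = 0.00375). LPS lowered Scarb1 in KO (log2 -0.27 ± 0.08, adjusted p = 0.0119). In WT the difference was -0.21 ± 0.08 with an adjusted p of 0.050025, just past the threshold of 0.05, and it passed in 12 of 20 alternatives. The responses differed by -0.06 ± 0.11 (adjusted p = 0.827).

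Mrc1 (ENSMUSG00000026712), the mannose receptor, was like Cd36 low in every KO library. Its level was 5.39, 3.09 and 1.73 CPM in WT in medium and 5.75, 3.74 and 2.98 CPM in WT under LPS. KO libraries held 0.175, 0.155 and 0.142 CPM in medium and 0.174, 0.239 and 0.236 CPM under LPS, from raw counts of 7 to 13 per library. The lines did not overlap, and again replicate 1 was the highest WT library of each treatment. The KO level was 21.3-fold lower in medium (log2 -4.41 ± 0.46, adjusted p = 5.34e-05, -4.48 without replicate 2 of WT) and 19.0-fold lower under LPS (log2 -4.25 ± 0.44, adjusted p = 3.8e-05). The difference between LPS and medium was 0.29 ± 0.36 in WT (adjusted p = 0.557) and 0.45 ± 0.51 in KO (adjusted p = 0.478).

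Cd163 (ENSMUSG00000008845), the haemoglobin scavenger receptor, was sparse and was the receptor that was higher in KO under LPS. Its level was 0.274, 0.108 and 0.234 CPM in WT in medium and 0.345, 0.399 and 0.142 CPM in WT under LPS. The KO values were 0.194, 0.133 and 0.0811 CPM in medium and 0.869, 0.809 and 0.824 CPM under LPS, from raw counts of 40, 44 and 35. The KO libraries under LPS lay above the other 9 libraries, which overlapped each other. LPS raised Cd163 in KO 6.01-fold (log2 2.59 ± 0.42, adjusted p = 0.000764), and the difference in WT was 0.47 ± 0.43 (adjusted p = 0.419). Under LPS the KO level was 2.88-fold higher (log2 1.53 ± 0.38, adjusted p = 0.0137), a call lost without replicate 3 of WT under LPS (log2 1.16, adjusted p = 0.0553). In medium the line difference was -0.59 ± 0.48 (adjusted p = 0.381). The responses of the lines differed by 2.12 ± 0.61 (adjusted p = 0.139), which did not pass the test with all libraries and passed without replicate 2 of WT in medium (2.43, adjusted p = 0.0203). Without that library the line difference in medium was -0.90.

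Stab1 (ENSMUSG00000042286), the stabilin, was lower in KO in medium, was not called between the lines under LPS and rose with LPS in KO. Its level was 35.1, 32.9 and 33.5 CPM in WT in medium and 42.1, 44.6 and 40.3 CPM in WT under LPS. The KO values were 17.3, 21.6 and 16.1 CPM in medium and 40.6, 41.8 and 33.6 CPM under LPS. In medium the lines did not overlap, and under LPS they did. The KO level was 1.85-fold lower in medium (log2 -0.88 ± 0.12, adjusted p = 0.000266, -0.93 without replicate 2 of WT), while the line difference under LPS was -0.13 ± 0.11 (adjusted p = 0.524). LPS raised Stab1 in KO 2.11-fold (log2 1.08 ± 0.12, adjusted p = 3.3e-05) and in WT by 0.32 ± 0.11 on the log2 scale (adjusted p = 0.0479). The call in WT was lost in 14 of 20 alternatives, among them the fits without any 1 of the 9 libraries of WT in medium, WT under LPS and KO in medium or without replicate 1 of KO under LPS (0.25 to 0.36 over all left-out libraries), and the difference was -0.01 when libraries were scaled by their size alone. The LPS response was larger in KO by 0.75 ± 0.16 (adjusted p = 0.0432). This call was lost without replicate 1 or 3 of WT in medium, any WT library under LPS, replicate 1 or 3 of KO in medium, or replicate 1 or 2 of KO under LPS, with adjusted p up to 0.122, while the difference stayed between 0.69 and 0.89 in every alternative.

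Olr1 (ENSMUSG00000030162), the lectin-like receptor for oxidised lipoprotein, was close to the limit of detection. Its level was 0.0632, 0.0433 and 0.109 CPM in WT in medium and 0.674, 0.374 and 0.38 CPM in WT under LPS. In KO it was 0.0389, 0.0442 and 0.0406 CPM in medium, with 2 raw counts in each library, and 0.0652, 0.147 and 0.188 CPM under LPS, with 3, 8 and 8 counts. The WT libraries under LPS lay above the other 9 libraries. LPS raised Olr1 6.22-fold in WT (log2 2.64 ± 0.42, adjusted p = 0.000649). In KO the difference was 1.64 ± 0.58 (adjusted p = 0.0332), a call that held in 10 of 18 alternatives and was lost without any KO library in medium or without replicate 2 or 3 of KO under LPS (adjusted p up to 0.108). Under LPS the KO level was 3.55-fold lower (log2 -1.83 ± 0.39, adjusted p = 0.00577). In medium, where 12 counts in WT stood against 6 in KO, the difference was -0.83 ± 0.63 (adjusted p = 0.348) and -1.10 without replicate 2 of WT in medium, which was not detectable at this depth. The responses differed by -1.0 ± 0.81 (adjusted p = 0.608).

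**Figure D2:**
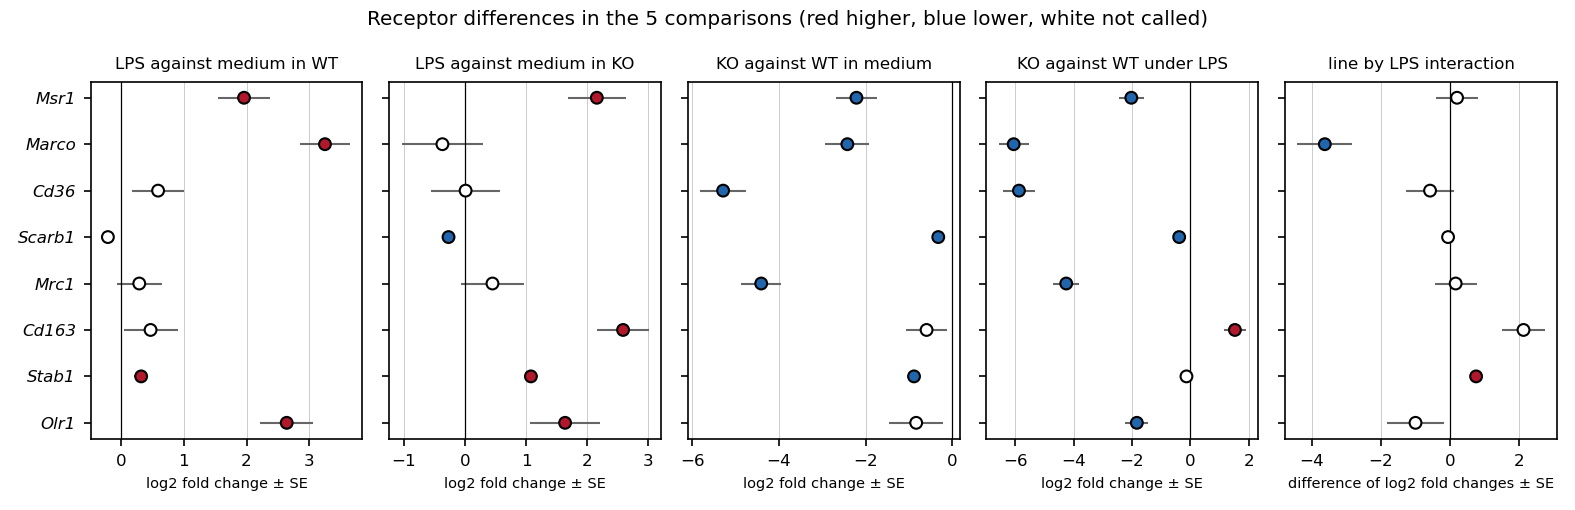
Log2 fold change ± SE of the 8 receptors in the 5 comparisons (x axes differ between panels). Red points were higher, blue lower and white not called at an adjusted p of 0.05. In both line comparisons Cd36, Mrc1, Marco, Msr1 and Scarb1 are blue, and the interaction calls are Marco (-3.62) and Stab1 (0.75).

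The line differences of Msr1, Marco, Cd36 and Mrc1 were called in all 20 alternatives in both conditions. These included a fit to protein-coding genes alone, in which processed pseudogenes take no part. The pseudogene share moves with line in medium, and beyond that fit its part in the results was not tested. Among the receptors, at most 0.742% of short transcript stretches also occurred in transcripts of other genes, and at most 1.587% did so as the reverse complement. For Marco, Cd36 and Mrc1 none did in either form. Overlap with genes on the opposite strand at the same place was not examined.

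Levels can be compared between receptors only per length, as CPM per kb of the gene's exons. In WT in medium Scarb1 was the most abundant (17.6 ± 1.39 CPM per kb, mean ± SD, n = 3), followed by Cd36 (4.48 ± 2.39) and Stab1 (3.29 ± 0.115), whose level lay within the range of the Cd36 libraries. Mrc1 (0.534 ± 0.291), Msr1 (0.243 ± 0.0916) and Marco (0.236 ± 0.119) overlapped, and so did Cd163 (0.0376 ± 0.0158) and Olr1 (0.0201 ± 0.00945) at the bottom. Under LPS in WT, Marco moved to the fourth place (2.25 ± 0.472 CPM per kb), below Stab1 (4.12 ± 0.209) and above Msr1 (0.949 ± 0.381) and Mrc1 (0.652 ± 0.225), whose libraries overlapped. In KO in medium, Scarb1 (14.1 ± 0.8) and Stab1 (1.78 ± 0.278) held the upper places. The next was Cd36 at 0.114 ± 0.0283 CPM per kb, and below it Marco (0.0423 ± 0.0274) and Cd163 (0.0249 ± 0.0104) overlapped with both Msr1 (0.0517 ± 0.0348) and Mrc1 (0.0247 ± 0.00262), while every Msr1 library lay above every Mrc1 library. In KO under LPS, Msr1 (0.235 ± 0.0255) and Cd163 (0.153 ± 0.00575) stood above Mrc1 (0.0339 ± 0.00575) and Marco (0.0328 ± 0.0194). In WT under LPS, by contrast, Marco stood above Msr1, and Cd163 was the lowest at 0.0541 ± 0.0248. Scarb1 stayed the most abundant under LPS in both lines, at 15.2 ± 0.687 CPM per kb in WT and 11.7 ± 0.297 in KO. With the longest transcript in place of all exons the Scarb1 level in WT in medium was 48.3, and 15 of the 32 levels moved by more than 1 SD.

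**Figure D3:**
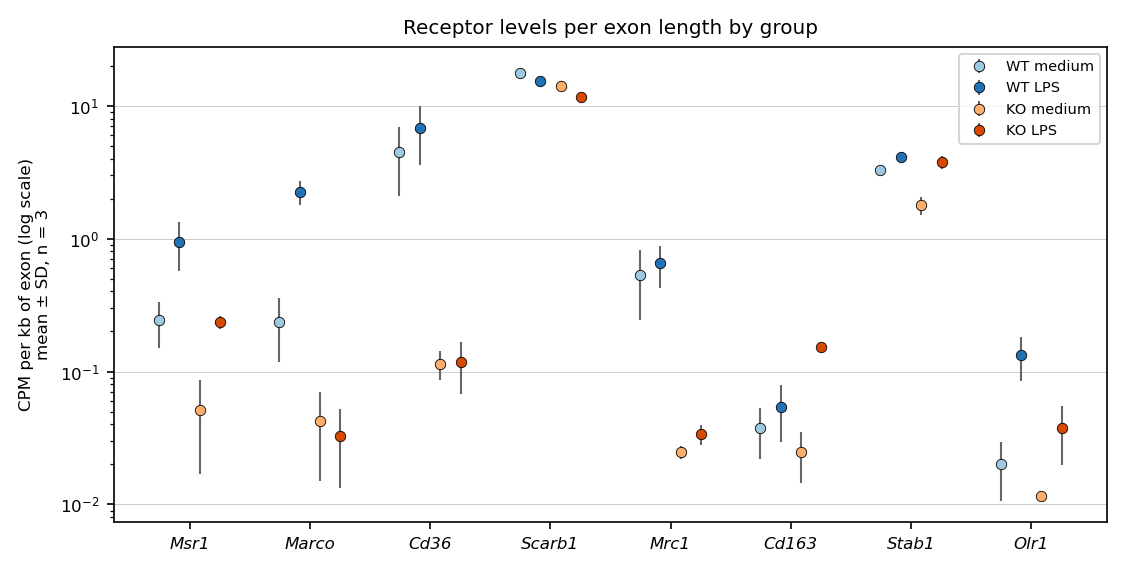
Mean CPM per kb of exon ± SD (n = 3, log axis) of each receptor in the 4 groups. Scarb1 is the highest in all groups (17.6 in WT in medium), whereas Cd36 drops from 4.48 to 0.114 and Mrc1 from 0.534 to 0.0247 between WT and KO in medium.

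Across the 12 libraries, log2 CPM of Cd36 and Mrc1 had a Pearson r of 0.99, and over the 6 WT libraries alone r was 0.96. In the WT libraries Msr1, Marco, Olr1 and Stab1, which were called higher with LPS in WT, had r values of 0.91 to 0.96 with each other. Cd36 had 0.52 (Olr1) to 0.67 (Msr1) with these receptors. Cd163 went against Scarb1 over the 12 libraries (r = -0.59). These values are descriptions: the points share libraries, line and treatment. The protein-coding genes whose pattern over the 12 libraries was most like Cd36, among 9369 compared, were Trf (transferrin, r = 0.993), Itgam (the complement receptor integrin CD11b, 0.992) and Npepps (0.992). For Msr1 they were Ppp2r5e (0.989), Prkx (0.978) and Mff (0.975), for Scarb1 Celf2 (0.977), Tifab (0.976) and Pik3cg (0.976), and for Stab1 Treml4 (0.978), Sc5d (0.975) and Tmem251 (0.967). In medium Trf had 72.3 CPM in WT against 15.4 in KO and Itgam 20.9 against 3.67, smaller differences (log2 -2.23 and -2.51) than that of Cd36. Treml4, a TREM-like receptor, went from 7.32 to 19.0 CPM with LPS in WT and from 0.586 to 8.99 CPM in KO. The other 4 receptors had a mean log2 CPM under 0 and were not compared in this way.

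Among 20 other scavenger receptors, 19 were tested, and 4 were lower and none higher in KO in medium (median log2 -0.11), with 4 lower and 2 higher under LPS (median -0.1). LPS raised 3 and lowered 3 in WT (median 0.04) and raised 5 and lowered 2 in KO (median -0.12), and edgeR called none in the interaction (median 0.03). At an unadjusted p under 0.05, 1 was higher in KO in medium (0 with DESeq2), and 2 had a larger and 1 a smaller LPS response in KO (1 and 0 with DESeq2). Of all genes, 12.3% were called lower and 6.88% higher in KO in medium, and 12.7% and 7.87% under LPS. With LPS, 16.3% were called higher and 16.3% lower in WT, and 25.3% and 26.8% in KO. The interaction called 1.6%. Counts of this list and of those that follow are to be read beside these shares, and some lie near or below them. Cd14, the LPS co-receptor, rose with LPS from 85.5 to 431 CPM in WT and from 38.2 to 251 CPM in KO, and was lower in KO in medium (log2 -1.16 ± 0.13, adjusted p = 7.37e-05) and under LPS (-0.78 ± 0.12, adjusted p = 0.000842). Ssc5d, a soluble cysteine-rich scavenger protein, was lower in KO in both conditions (-0.72 ± 0.15 and -1.12 ± 0.15). Cd68, the macrophage macrosialin (411 ± 33.6 CPM in WT in medium and 350 ± 85.1 in KO), was not called in any comparison. Lrp1 (401 CPM in WT against 357 in KO in medium) and Colec12 (126 against 116) were likewise abundant in both lines and not called between them. Clec7a (dectin-1, the beta-glucan receptor), Lrp1 and Colec12 are named after their values were seen. Clec7a was at 22.4, 13.3 and 11.6 CPM in WT in medium and 0.817, 0.265 and 0.406 CPM in KO in medium (log2 -4.97 ± 0.42, adjusted p = 1.52e-05), and the difference under LPS was -5.73 ± 0.45 (adjusted p = 5.26e-06).

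The mannose receptor family and myeloid C-type lectins were called lower in KO more often than higher. Of 21 genes, 15 were tested. In medium 7 were lower and 2 higher in KO (median -0.91), and under LPS 7 were lower and 1 higher (median -0.79). The 1 higher under LPS is near the share of all genes called higher there, 7.87%. LPS raised 5 and lowered 3 in WT (median 0.51) and raised 6 and lowered 2 in KO (median -0.01), and edgeR called none in the interaction (median -0.08), where 2 were larger and 1 smaller at an unadjusted p under 0.05 and 0 with DESeq2. Clec4e (Mincle, the receptor for mycobacterial cord factor) rose with LPS from 53.3 ± 2.33 to 663 ± 73.1 CPM in WT and from 16.3 ± 3.69 to 289 ± 56.1 CPM in KO. It was lower in KO in medium (log2 -1.71 ± 0.17, adjusted p = 4.16e-05) and under LPS (-1.20 ± 0.17, adjusted p = 0.000334). Its partner Clec4d was lower in KO by -1.21 ± 0.10 and -1.05 ± 0.10. Of genes named after their values were seen, Cd302, a single-lectin-domain relative of the mannose receptor, was at 8.49, 6.92 and 6.57 CPM in WT in medium and 0.233, 0.221 and 0.284 CPM in KO (log2 -4.88 ± 0.25, adjusted p = 3.1e-07). Clec4n (dectin-2, which binds fungal mannans) was at 2.87, 1.71 and 1.51 CPM in WT in medium against 0.0389, 0.0884 and 0.0608 in KO (-4.98 ± 0.43, adjusted p = 1.32e-05). Its raw counts in KO were 2, 4 and 3 in medium and 3, 8 and 4 under LPS. Like Marco and Mrc1, Clec4n therefore passed the filter on low counts through the WT groups alone, and the counts for this list describe its genes only. Mrc2, another member of the mannose receptor family, had 2.83 CPM in medium in WT against 1.5 in KO and was not called between the lines.

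**Figure D4:**
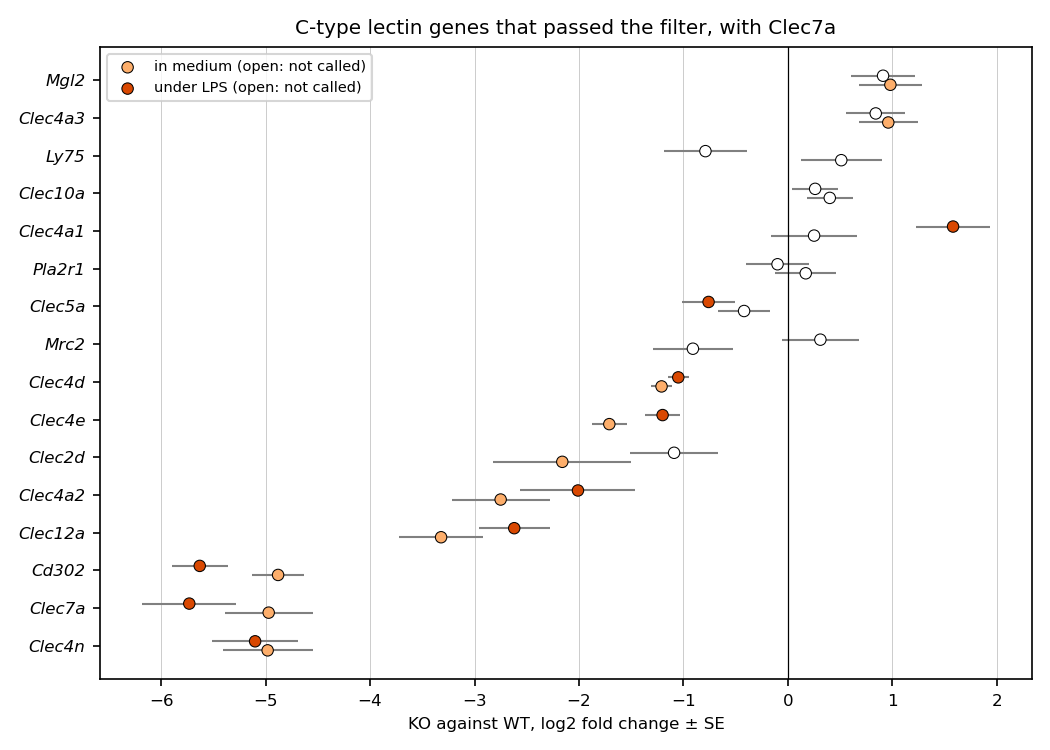
Log2 fold change ± SE of KO against WT, in medium (light) and under LPS (dark), for the 15 lectin genes that passed the filter and Clec7a. Filled points passed an adjusted p of 0.05. Cd302, Clec4n and Clec7a lie near -5 and below. The filled points above 0 are Mgl2 and Clec4a3 in medium and Clec4a1 under LPS, and the other points above 0 are open.

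All 24 genes listed as transcription factors and upstream receptors, with the cytokine gene Il10 among them, were tested. Whether each acts on the 8 receptors in these cells was not tested. In KO in medium 6 were lower and none higher (median log2 -0.19), and under LPS 8 were lower and none higher (median -0.34). LPS raised 13 and lowered 3 in WT (median 0.44) and raised 8 and lowered 5 in KO (median 0.17). Il10, counted among those raised in WT and those lower in KO under LPS, passed the filter only through WT under LPS. The counts for this list therefore describe its genes only. At an unadjusted p under 0.05, 2 were higher in KO in medium and 0 under LPS (0 in both with DESeq2). Spi1, which encodes PU.1, was at 120 ± 4.34 CPM in WT and 67.6 ± 4.61 in KO in medium (log2 -0.83 ± 0.11, adjusted p = 0.000292) and rose with LPS by 1.10 ± 0.11 in WT and 1.74 ± 0.11 in KO. Cebpb was lower in KO by -0.82 ± 0.12 in medium. Atf3 rose with LPS by 3.11 ± 0.24 in WT and 3.4 ± 0.25 in KO. Il4ra, the interleukin-4 receptor chain upstream of Mrc1 in alternatively activated macrophages, went from 17.9 ± 2.61 to 32.9 ± 3.67 CPM with LPS in WT and from 22.6 ± 0.184 to 16.0 ± 0.343 CPM in KO. It was the 1 gene of this list called in the interaction (-1.38 ± 0.15, adjusted p = 0.0018, median of the list -0.16), and it was lower in KO under LPS (-1.04 ± 0.11), as was Irf4 (-0.92 ± 0.16). Maf, named after its values were seen, was at 12.2, 4.43 and 3.85 CPM in WT in medium against 1.17, 0.353 and 0.547 in KO (log2 -3.29 ± 0.61, adjusted p = 0.00339). Its difference under LPS was -2.41 ± 0.59 (adjusted p = 0.0133), and replicate 1 was the highest WT library, as for Cd36 and Mrc1. Pparg stayed under 0.5 CPM in every group mean and was not called between the lines.

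Genes that handle the lipid and haem cargo of these receptors were lower in KO in 10 of 19 cases in medium (median log2 -0.5) and in 13 of 19 under LPS (median -0.79), and none was higher by edgeR, at an unadjusted p under 0.05 or by DESeq2 (0 each). LPS raised 8 and lowered 2 in WT (median 0.31) and raised 5 and lowered 4 in KO (median 0.14). Blvrb, a biliverdin reductase, was lower in KO by -1.58 ± 0.13 in both conditions, and Hmox1, the haem oxygenase, by -0.98 ± 0.12 in medium. Plin2, which coats lipid droplets, rose from 75.7 ± 10.8 to 137 ± 19.2 CPM with LPS in WT and was at 46.7 ± 0.873 and 43.4 ± 1.24 CPM in KO, with an interaction of -0.97 ± 0.16 (adjusted p = 0.0116). Acsl1, a fatty acid activating enzyme, had an interaction of -0.67 ± 0.11 (adjusted p = 0.0101). The third gene of the list called in the interaction (median of the list -0.19) was Fabp4, a fatty acid binding protein named after its values were seen, with 1.79, 0.952 and 0.81 CPM in WT in medium, 7.17, 6.58 and 4.99 CPM in WT under LPS and 0.353 to 0.565 CPM in all KO libraries (-2.09 ± 0.45, adjusted p = 0.0427). The cholesterol exporters Abcg1 (-0.90 ± 0.17 in WT and -0.97 ± 0.17 in KO) and, in KO, Abca1 (-0.99 ± 0.18) fell with LPS. Fth1, the ferritin heavy chain, rose with LPS from 1922 to 4206 CPM in WT and from 2128 to 4146 CPM in KO.

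Signalling partners were less one-sided. Of 18, 4 were lower and 1 higher in KO in medium (median -0.12), and 6 were lower and 2 higher under LPS (median -0.13). LPS raised 11 and lowered 3 in WT (median 0.57) and raised 11 and lowered 4 in KO (median 0.5). Tlr2, a partner of Cd36 and Marco, rose with LPS from 60.5 to 302 CPM in WT and from 71.3 to 573 CPM in KO, while Tlr6 was lower in KO (-0.65 ± 0.11 in medium and -1.27 ± 0.11 under LPS) and so was Tlr4 (-0.63 ± 0.12 and -1.15 ± 0.12). Itgb1, an integrin beta chain, rose with LPS by 0.63 ± 0.13 and 0.62 ± 0.13. The 1 partner called in the interaction (median of the list -0.1) was Src, with 2.15 ± 0.234 and 20.7 ± 1.01 CPM in WT in medium and under LPS and 1.33 ± 0.505 and 3.05 ± 0.395 CPM in KO (-2.07 ± 0.31, adjusted p = 0.00832), named after its values were seen. Of 10 proteases and regulators listed for ectodomain shedding, the release of receptors such as Cd163 from the cell surface, 9 were tested. In KO 2 were lower and none higher in each condition (medians 0.0 in medium and -0.12 under LPS), namely Adam17 (-0.84 ± 0.09 and -0.57 ± 0.09) and its partner Rhbdf2 (-0.69 ± 0.08 and -0.71 ± 0.08). LPS raised 4 and lowered none in WT (median 0.01) and raised 3 and lowered 3 in KO (median -0.08), among them Rhbdf2 (2.18 ± 0.08 and 2.15 ± 0.08) and the proprotein convertase Furin (2.10 ± 0.25 and 2.28 ± 0.25). EdgeR called none in the interaction (median -0.12), where 1 was smaller at an unadjusted p under 0.05 and 0 with DESeq2. For the other zero counts of this list, 1 was higher in KO in medium at an unadjusted p under 0.05 (1 with DESeq2), 0 under LPS (0 with DESeq2), and 1 was lower with LPS in WT (0 with DESeq2).

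The low RNA of Cd36, Mrc1 and Marco in KO was not shared by all of their neighbours on the chromosome, which were listed after the receptors' values were seen. Around Cd36 on chromosome 5, of the 3 tested protein-coding genes on each side, Hgf was lower in KO in medium (log2 -1.52 ± 0.38, adjusted p = 0.0162, at 0.382 and 0.13 CPM) and Phtf2 was higher (0.41 ± 0.09, adjusted p = 0.0111). The neighbour on the other side, Magi2, was not called (-0.22 ± 0.24, adjusted p = 0.531). Hgf and Magi2, the nearest, lay at -1228.2 and 1437.7 kb from Cd36, so no tested gene was close to it. None of the 6 neighbours of Marco on chromosome 1 was called in medium, and their differences ran from -0.24 to 0.09. Around Mrc1 on chromosome 2, 4 of 6 neighbours were lower in KO in medium, by much less than Mrc1 (-0.93 ± 0.07 for Stam, -0.54 ± 0.10 for Hacd1, -0.71 ± 0.15 for Nsun6 and -0.74 ± 0.10 for Arl5b). Olr1 lies on chromosome 6 in a cluster of lectin genes, where Clec7a (-4.97 ± 0.42) and Clec12a (-3.32 ± 0.40) were lower in KO in medium and Gabarapl1 (0.73 ± 0.16) and Klrd1 (2.33 ± 0.29) were higher. Near Msr1 on chromosome 8, Zdhhc2 at 880.3 kb (-2.88 ± 0.38) and Lonrf1 at -3327.2 kb (-1.11 ± 0.11) were lower in KO in medium. Near Stab1 on chromosome 14, Nt5dc2 at -7.9 kb (-1.52 ± 0.13) and Tnnc1 at 69.3 kb (-0.93 ± 0.26) were lower. The other listed neighbours of Msr1 and Stab1 were not called in medium.

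**Figure D5:**
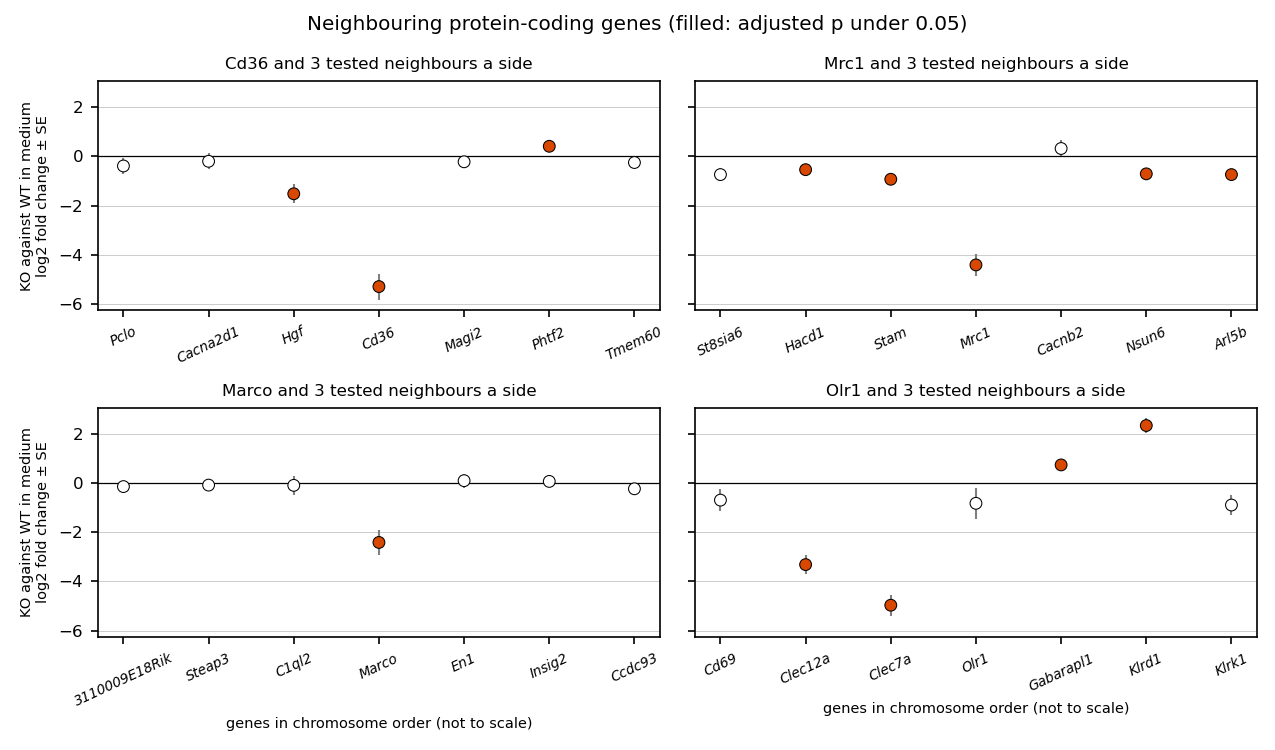
Log2 fold change ± SE of KO against WT in medium for Cd36, Mrc1, Marco and Olr1 and 3 tested protein-coding neighbours on each side, in chromosome order. Filled points passed an adjusted p of 0.05. Cd36 (-5.29), Mrc1 (-4.41) and Marco (-2.42) lie below all of their plotted neighbours, and around Olr1 the lowest point is Clec7a (-4.97).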

How the data were processed

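Total RNA was sequenced from 12 libraries as stranded, ribosomal RNA-depleted libraries, per the labels' protocols. Per the submitters' processing notes, the tools were featureCounts, STAR 2.7.9a, Trimmomatic 0.39, FastQC 0.11.9 and DESeq2 1.32.0, and the build was GRCm39. Strand setting, handling of multi-mapping reads and annotation release were not given in the sources used here. Whole-number read counts for each Ensembl gene were deposited by the authors, 39.7 to 72.9 M per library. Of the identifiers, 52135 matched a symbol in GENCODE or the gene name table, and those without one held 4.86% to 10.4% of the counts and stayed in the tests.

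The test was edgeR 4.0.16 (R 4.3.3). Rows were kept by filterByExpr by group (count minimum 10), scaled by TMM and fitted by glmQLFit (robust) with 4 group means over all libraries. The 5 comparisons were LPS against medium in each line, KO against WT in each condition and their interaction (LPS effect in KO minus that in WT). Calls were made at an adjusted p under 0.05 (Benjamini-Hochberg over 26420 genes, each comparison separately). The common biological coefficient of variation was 0.235. SE is the fitted log2 fold change divided by the square root of its F statistic. Correlations used log2 CPM with a prior count of 2. GENCODE on GRCm38 served for names, exon lengths and transcript sequence, and RefSeq promoters on GRCm38.p6 matched 6 of the 8 receptors. No per-sample column was left unassigned. The script was tested on simulated data.

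The receptors and the lists (other scavenger receptors, mannose receptor family and myeloid C-type lectins, transcription factors and upstream receptors, lipoprotein and haem handling, signalling partners, ectodomain shedding and markers of 9 cell types) were chosen with earlier results of these data known. All receptors were named in every comparison. From each list the rule named the 2 called genes with the largest change per comparison at a mean log2 CPM of at least 2 and the gene with the highest mean log2 CPM over the 12 libraries, and for receptors whose mean log2 CPM was 0 or more the 3 most similar protein-coding genes. Some genes named by this rule are not reported here. Alternatives were DESeq2 1.42.0, scaling by RLE or by library size alone, a count minimum of 50, no filter, protein-coding genes only, a replicate block, a fit to the compared groups alone, each library left out and the longest transcript as length.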

Additional observations from a re-analysis of the deposited data

Results flagged for a closer look

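For 2 receptors the response to LPS differed between the lines by the test of the interaction itself. The LPS effect on Marco was smaller in KO than in WT (difference of log2 fold changes -3.62 ± 0.79, adjusted p = 0.0468). It rests on 9 raw counts over the 3 KO libraries under LPS and 12 over the 3 in medium, against 704 and 70 in WT. The LPS effect on Stab1 was larger in KO (0.75 ± 0.16, adjusted p = 0.0432), where all 12 libraries held at least 795 counts. Both adjusted p values lie just under 0.05 (edgeR, 26420 genes).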

How the results depend on the processing

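Of 20 alternatives a comparison (19 for the interaction), none changed the count of receptors lower in KO beyond 1.5 times, in medium or under LPS (6 each over every left-out library). With a count minimum of 50, which left 6 receptors tested, the number higher with LPS was 2 in WT and 2 in KO (4 each as reported), and the number higher in KO under LPS was 0 (1 as reported). The number lower with LPS in WT was 1, not 0, with library size alone, no filter, a count minimum of 50, protein-coding genes only, the replicate block or only the groups compared, the receptor being Scarb1. Over left-out libraries the numbers were 3 to 4 and 0 to 1 (higher and lower with LPS in WT), 3 to 4 and 1 (in KO), 0 (higher in KO in medium), 0 to 1 (higher in KO under LPS), and 0 to 2 and 0 to 1 (larger and smaller response in KO). Differences that turned direction were all uncalled after the turn. With library size alone these were LPS in WT for Mrc1 (-0.04) and Stab1 (-0.01), LPS in KO for Cd36 (-0.24) and the interaction for Scarb1 (0.02). Cd36 with LPS in KO was also -0.10 with no filter, -0.02 with a count minimum of 50 and -0.15 with protein-coding genes only. Over left-out libraries Mrc1 with LPS in WT ran from -0.06 to 0.72, Marco with LPS in KO from -0.70 to 0.24, Cd36 with LPS in KO from -0.27 to 0.35, and the interactions of Msr1 from -0.04 to 0.92 and of Mrc1 from -0.31 to 0.47. The cause was not tested. Scarb1 in medium missed the threshold when only the groups compared were fitted (adjusted p = 0.0525). Scaling by library size alone put the all-gene median at -0.403 (LPS in WT) and -0.293 (LPS in KO) and the calls higher and lower at 2104 and 9985 (4303 and 4297 with TMM), at 4182 and 10422 (6679 and 7070) and, for KO against WT under LPS, at 2922 and 2936 (2080 and 3351). Samples with the same replicate number are not said to share a day or batch, and their deviations correlated over 0.1 in every pair of no comparison. Such a cutoff does not settle whether the numbers pair the samples. The main fit left them unpaired, and a replicate block was tried. Every sample of the first group correlated best with its own number for LPS in KO (3 of 3) but not in the other comparisons (1 or 2 of 3). With the replicate block the Marco interaction had an adjusted p of 0.0517, which left 0 receptors with a smaller response in KO, and the LPS effect on Scarb1 in WT passed (0.0141). The block moved the calls of KO against WT in medium to 2417 higher and 3769 lower and changed no other receptor call. Depth limits Olr1 and Marco in KO, which rest on 1 to 8 counts a library.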

Other observations

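A few genes of the lists were higher in KO, chosen here after their values were seen. Clec4a1, a C-type lectin of the Dcir group, was at 2.36 ± 0.292 CPM (mean ± SD, n = 3) in KO under LPS and 0.785 ± 0.278 in WT under LPS (log2 1.58 ± 0.35, adjusted p = 0.00712, edgeR). Cxcl16, a transmembrane chemokine that also binds oxidised lipoprotein, was at 5.24 ± 1.11 CPM in KO and 2.02 ± 0.469 in WT under LPS (1.38 ± 0.32, adjusted p = 0.00899). In medium, Mgl2, a galactose-type macrophage lectin, was at 8.57 ± 1.15 CPM in KO and 4.35 ± 1.56 in WT (0.98 ± 0.30, adjusted p = 0.0424), and Clec4a3 at 6.05 ± 0.888 and 3.12 ± 1.12 (0.96 ± 0.28, adjusted p = 0.0319). LPS lowered Mgl2 in both lines (-0.90 ± 0.31 in WT and -0.97 ± 0.30 in KO).

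Il10, an anti-inflammatory cytokine gene, rose with LPS in WT from 0.1 ± 0.0974 to 0.597 ± 0.178 CPM (log2 2.65 ± 0.61, adjusted p = 0.007), with 0.0892 ± 0.0118 and 0.0933 ± 0.0418 CPM in KO (KO against WT under LPS -2.65 ± 0.62, adjusted p = 0.00921). The LPS responses of the lines differed by -2.61 ± 1.03, which did not pass the test (adjusted p = 0.292, edgeR). Raw counts summed to 14 and 92 in WT in medium and under LPS, and to 13 and 13 in KO. Il10 passed the filter on low counts only through WT under LPS, with 29 to 32 counts a library. It was therefore tested because of the group in which it was high, and these values describe Il10 alone and support nothing beyond it.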
